A study of Mus musculus with 6 samples.

Results

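The 10 genes described here encode surface molecules used to sort or to characterise mammary cells by antibody: the prominins Prom1 and Prom2, the adhesion molecules Cd24a and Epcam, Ly6a and Kit, the immune and complement regulators Cd200 and Cd55, the tetraspanin Cd9 and the folate receptor Folr1. They were chosen by name, and every gene probe of the array whose transcript accession belongs to one of them was taken, which gave 13 probes for 10 of the 20145 genes that could be matched. The cells were primary mammary epithelial cells from dissociated glands of female mice, 8 weeks old and of 129sv/C57Bl6 strain. The groups were wild type, or Plk2 +/+ (3 samples), and null, or Plk2 -/- (3 samples), Plk2 being a polo-like kinase; the labels name no other allele and no agent. The RNA of each sample was labelled with Cy3 and read on its own array. The labels name no sort, and do not say how the Plk2 allele was made, whether animals were pooled or whether the cells were cultured. Each value is thus an average over the cells of a sample, whose make-up the labels do not give. Levels are log2 processed signals, with 0 at the 75th percentile of the array. They can be compared between samples for a probe, but not between probes.

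A mammary duct has an inner layer of luminal cells and an outer layer of basal, myoepithelial cells. Antibodies to surface proteins separate them in suspension: EpCAM and CD24 are high on luminal cells and lower on basal cells, whereas cells of blood, vessels and stroma are set aside by other markers. Within the luminal layer, CD133 (the product of Prom1) and Sca-1 (the product of Ly6a) mark mainly hormone-sensing cells, and the receptor tyrosine kinase Kit marks mainly progenitors. Several of these proteins are not particular to epithelium, since Sca-1 is also found on endothelial cells and lymphocytes, CD24 on B cells, CD200 on lymphocytes and endothelium, and Kit on mast cells.

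All arrays were on 1 slide. Row 1 held the wild-type and row 2 the null samples, and an effect of the row cannot be told apart from one of genotype. Of 55681 probes, each array measured 27929 to 30478 well above background. Plk2 had levels of 2.17, 2.21 and 2.38 in wild-type and -6.98, -7.22 and -7.00 in null samples, where its probe was not well above background. Null sample 3 stood apart from the other null samples, with a correlation of 0.980 to null sample 1 and 0.975 to null sample 2 over 24567 entries, against 0.989 between those samples. Results that rest on null sample 3 are therefore also given without it. The luminal keratin genes Krt8 and Krt18 and the basal Krt5 and Krt14 were well above background on all arrays, as was each member by its reported probe. Genes of both epithelial layers were thus measured, but so were the lymphocyte gene Cd3e and the endothelial genes Pecam1 and Cdh5. The fibroblast gene Col1a1 and the globin gene Hba-a1 were measured too, with processed signals of 29495 to 45065 and 35935 to 61008.

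Prom2 was the member past the threshold, and the sequence before its start is shown with those of its relative Prom1 and of Epcam, so that the 3 can be compared. The level of Epcam in every null sample lay within the wild-type range. They are the 250 bases before the RefSeq start on the GRCm38.p6 build, 5′ to 3′ on the gene's strand. Capitals mark matches on either strand to the letters GGGCGG, known as the GC box. They also mark the CCAAT box, named by its letters, and no match overlapped another.

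Prom2: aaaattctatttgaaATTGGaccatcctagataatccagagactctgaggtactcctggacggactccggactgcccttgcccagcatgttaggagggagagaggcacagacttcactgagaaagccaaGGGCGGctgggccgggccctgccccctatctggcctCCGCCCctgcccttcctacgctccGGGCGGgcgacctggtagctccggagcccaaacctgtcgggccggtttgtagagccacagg
Prom1: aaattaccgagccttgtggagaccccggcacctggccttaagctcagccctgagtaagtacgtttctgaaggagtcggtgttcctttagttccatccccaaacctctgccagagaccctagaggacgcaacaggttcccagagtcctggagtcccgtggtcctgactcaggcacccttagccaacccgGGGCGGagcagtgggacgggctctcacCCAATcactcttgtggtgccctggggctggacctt
Epcam: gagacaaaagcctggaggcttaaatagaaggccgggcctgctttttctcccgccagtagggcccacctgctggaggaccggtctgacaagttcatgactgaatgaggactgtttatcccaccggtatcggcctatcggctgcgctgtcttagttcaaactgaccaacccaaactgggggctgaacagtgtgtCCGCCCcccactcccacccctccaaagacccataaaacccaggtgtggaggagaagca

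The Prom2 window lies at chr2:127541418-127541667 on the minus strand, that of Prom1 (its outermost start) at chr5:44101737-44101986 on the minus strand, and that of Epcam at chr17:87635729-87635978 on the plus strand. Prom2 held 3 GC boxes and 1 CCAAT box, Prom1 held 1 of each, and Epcam held 1 GC box. Among all 32851 windows of the same length in the RefSeq table, 32.7% held a GC box and 33.8% a CCAAT box. On either strand, TATAAA (the TATA box) was in none of the 3 windows and in 12.4% of all. The steroid receptor half-site searched, AGAACA, was in none of the 3 and in 16.1% of all. The half-site of other nuclear receptors, AGGTCA, was in none of the 3 and in 14% of all. The guanine and cytosine content was 60.8% for Prom2, 59.2% for Prom1 and 56.4% for Epcam, against a median of 52.4% over all windows. The table held 7 of the 10 members, and these matches describe letters in the windows, which no measurement here bears on.

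Prom2 encodes prominin-2, a cholesterol-binding protein of membrane protrusions in epithelial cells, and it was lower in every null sample. Its reported probe had levels of 3.65, 3.47 and 3.84 in wild-type samples and of 1.29, 1.54 and 1.23 in null samples. The groups did not overlap, and null sample 3 lay with the other null samples. The processed signals behind these levels were 2774 to 4062 in wild-type and 565.6 to 834.9 in null cells. The mean level was 3.65 ± 0.19 in wild-type and 1.35 ± 0.16 in null cells (SD, n = 3 each), a difference of -2.30 (95% interval -2.70 to -1.90), or 4.93-fold lower. The difference was larger than the spread between samples (limma, adjusted p = 0.0085 over 24607 entries), and Prom2 ranked 11 by p among them. In the authors' deposited table the same probe had a ratio of wild type over null of 4.41, with an unadjusted p of 3.43e-05. In a mixed preparation, fewer cells of a type and less RNA per cell cannot be told apart.

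The other Prom2 probe, matched to a second transcript accession (NM_138750 beside NM_178047), was near background in null cells. It had levels of -2.76, -3.02 and -2.89 in wild-type samples and of -5.20, -4.50 and -4.86 in null samples, where it was well above background only in null sample 2. With 1 of 3 null arrays measured well above background, the size of its difference is not read here, and it is not counted as support. In the authors' deposited table this probe had a ratio of wild type over null of 1.45, beside 4.41 for the reported probe. Its processed signals here were 8.27 to 38.4. How the deposited values treat such dim spots is not given, so these ratios are not compared. By its reported probe, Prom2 was no longer past the threshold without wild-type sample 2 (-2.40; limma, adjusted p = 0.0573) or null sample 1 (-2.27; limma, adjusted p = 0.0602), while the difference itself ran from -2.40 to -2.01 over all 17 alternatives. The same replicate numbers as a block also ended the call (limma, adjusted p = 0.0824).

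Of the 10 members, 1 was lower and 0 were higher past the threshold by limma, where 0.333% of all entries were lower and 0.219% higher. At an unadjusted p under 0.05 the count was also 1, against 22.8% of all entries. Of the 13 probes, 12 passed the filter on dim probes and 2 of these, both of Prom2, passed the threshold, against 0.658% of all probes. The second of them passed the filter through the wild-type arrays, and with all arrays required the count was 1. The count over the 12 was 1 without wild-type sample 1, 2 or 3, 0 without null sample 1 and 4 without null sample 3. The groups did not overlap for 1 of 10 members, again Prom2, against 31.3% of all entries. The median difference of the members was -0.34, against 0.026 for all entries.

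**Figure D1:**
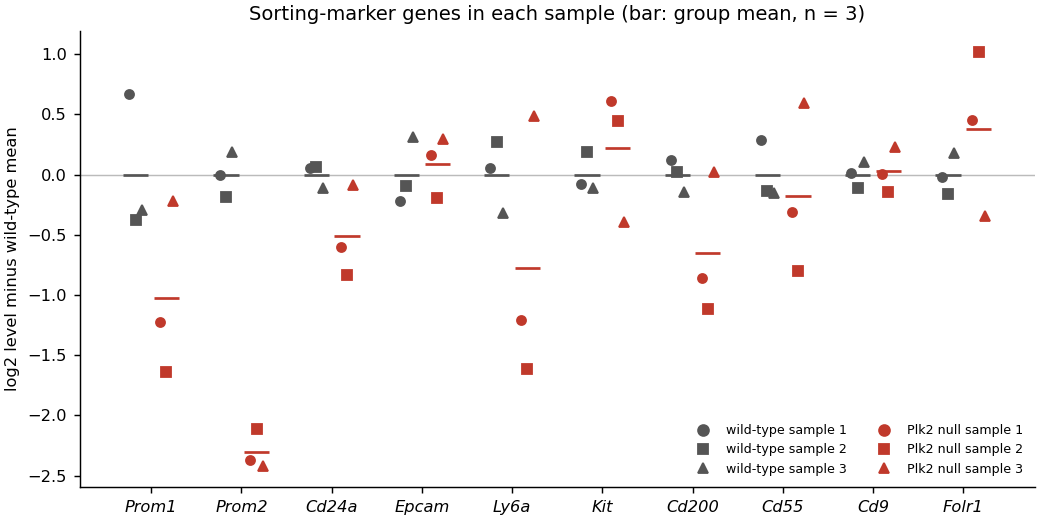
Each point is the log2 level of a member gene in a sample, minus the wild-type mean of that gene; grey points are wild-type and red points Plk2 null samples, symbols give the sample number and bars the group means (n = 3). Prom2 lies between -2.42 and -2.12 in all null samples, whereas null sample 3 (triangles) departs from null samples 1 and 2 for Prom1, Cd24a, Ly6a, Kit, Cd200, Cd55 and Folr1.

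Prom1 encodes prominin-1, or CD133, the relative of prominin-2 used to sort hormone-sensing luminal cells. Its levels were 5.12, 4.07 and 4.15 in wild-type and 3.22, 2.80 and 4.23 in null samples. Null samples 1 and 2 lay below all wild-type samples, and null sample 3 lay among them. The difference was -1.03 (95% interval -2.07 to 0.014; limma, adjusted p = 0.224), which did not pass the threshold, and without null sample 3 it was -1.43 (limma, adjusted p = 0.0918). A dimmer Prom1 probe gave 0.026, -0.95 and -1.15 in wild-type and -1.92, -2.04 and -0.74 in null samples. Null samples 1 and 2 were again the lowest of the 6, and its difference was -0.88 (SE 0.44; limma, adjusted p = 0.289).

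**Figure D2:**
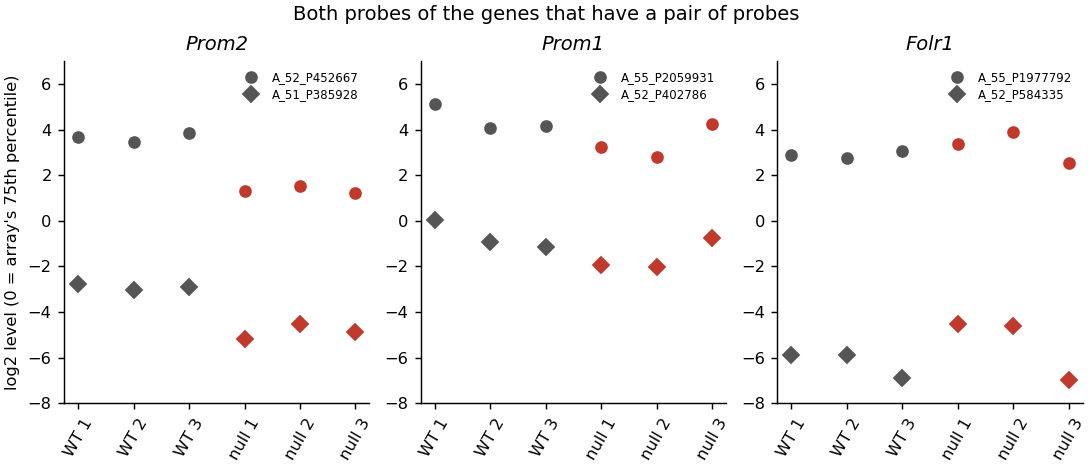
Log2 levels of both probes of Prom2, Prom1 and Folr1 in each sample, with 0 at the array's 75th percentile; circles and diamonds are the brighter and the dimmer probe, grey is wild type and red is Plk2 null. Both Prom2 probes are lower in all null samples, where the dimmer was well above background on 1 of 3 arrays, both Prom1 probes are lowest in null samples 1 and 2, and both Folr1 probes are highest there.

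Cd24a encodes CD24, a small glycoprotein anchored by lipid that is high on luminal cells. Its levels were 6.03, 6.04 and 5.87 in wild-type and 5.37, 5.14 and 5.89 in null samples. As with Prom1, null samples 1 and 2 were below every wild-type sample and null sample 3 was within their range. The difference was -0.51 (95% interval -1.03 to 0.0060; limma, adjusted p = 0.224) and did not pass the threshold. It was -0.72 without null sample 3 (limma, adjusted p = 0.0678) and -0.35 without null sample 2 (limma, adjusted p = 0.432). With scaling on spike-in controls it was -0.22 (limma, adjusted p = 0.546). In the authors' deposited table it had a ratio of wild type over null of 1.56, with an unadjusted p of 0.00903.

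Epcam encodes the epithelial cell adhesion molecule, which marks all mammary epithelium in a sort. Its levels were 3.96, 4.08 and 4.49 in wild-type and 4.34, 3.99 and 4.47 in null samples. The groups overlapped, and every null sample lay within the wild-type range. The difference was 0.089 (95% interval -0.41 to 0.59; limma, adjusted p = 0.822), an interval that holds changes of either sign.

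Ly6a encodes Sca-1, a lipid-anchored surface protein of the Ly6 family. It had levels of 5.86, 6.08 and 5.49 in wild-type and of 4.61, 4.20 and 6.30 in null samples. Null samples 1 and 2 were the lowest of the 6 and null sample 3 the highest. The spread among null samples (SD 1.11, n = 3) exceeded the difference of -0.78 (95% interval -2.04 to 0.48; limma, adjusted p = 0.418). Without null sample 3 the difference was -1.41 (limma, adjusted p = 0.0453), and without null sample 2 it was -0.36 (limma, adjusted p = 0.724). Ly6a has close relatives in its gene cluster, Ly6c1 among them, so its signal is uncertain to the extent that the probe is shared. Ly6c1 differed by -0.52 and did not pass (limma, adjusted p = 0.481).

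Kit encodes the receptor of stem cell factor and marks luminal progenitors. Its levels were 2.60, 2.86 and 2.57 in wild-type and 3.29, 3.12 and 2.28 in null samples. Null samples 1 and 2 were above all wild-type samples and null sample 3 was below them, so the groups overlapped. The difference was 0.22 (95% interval -0.45 to 0.89; limma, adjusted p = 0.666). It was 0.53 without null sample 3 (limma, adjusted p = 0.128), 0.11 without null sample 2 and 0.026 without null sample 1. Its ligand gene Kitl differed by -0.19 (limma, adjusted p = 0.553).

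Cd200 encodes a membrane glycoprotein that restrains myeloid cells through a receptor on them. It had levels of 4.60, 4.50 and 4.33 in wild-type and of 3.62, 3.36 and 4.50 in null samples. Null samples 1 and 2 were again below the wild-type range and null sample 3 inside it. The difference was -0.65 (95% interval -1.37 to 0.066; limma, adjusted p = 0.254), with -0.99 without null sample 3 (limma, adjusted p = 0.045) and -0.42 without null sample 2 (limma, adjusted p = 0.48).

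Cd55 encodes decay-accelerating factor, which limits complement on the cell's own surface. Its levels of 3.22, 2.79 and 2.78 in wild-type samples compared with 2.62, 2.13 and 3.52 in null samples. Null sample 3 was the highest of the 6, and null samples 1 and 2 were the lowest. The difference of -0.17 (95% interval -1.03 to 0.68; limma, adjusted p = 0.795) turned to 0.12 with scaling on spike-in controls. It was -0.56 without null sample 3 (limma, adjusted p = 0.206) and 0.14 without null sample 2. The neighbouring copy Cd55b, by its own probe, differed by -0.34 (limma, adjusted p = 0.503), and signal shared between these copies makes both uncertain.

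Cd9 encodes a tetraspanin, a scaffold of membrane domains present on most epithelial cells. It had levels of 6.67, 6.55 and 6.77 in wild-type and of 6.67, 6.52 and 6.89 in null samples. The groups overlapped, with the narrowest interval of the 10 members, -0.35 to 0.41 around a difference of 0.028 (limma, adjusted p = 0.928). Its sign turned with quantile normalization (-0.11), with array weights (-0.032) and with the deposited table's values (-0.090).

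Folr1 encodes folate receptor alpha, a lipid-anchored protein that takes up folate. Its reported probe had levels of 2.87, 2.73 and 3.07 in wild-type and of 3.35, 3.91 and 2.54 in null samples. As for Kit, null samples 1 and 2 were above all wild-type samples and null sample 3 below them. The difference was 0.38 (95% interval -0.43 to 1.19; limma, adjusted p = 0.539). It was 0.74 without null sample 3 (limma, adjusted p = 0.122) and 0.056 without null sample 2. The other Folr1 probe did not pass the filter: it was well above background only in null samples 1 and 2, at -4.51 and -4.59, and had levels of -5.86, -5.89 and -6.91 in wild-type samples and -6.97 in null sample 3. No fold is given for it, since its mean in null cells did not exceed the lowest measurable level of the wild-type arrays.

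In each null sample, most members lay outside the range of the wild-type samples, as did most entries. In null sample 1, 6 members lay below and 2 above the range of the wild-type samples, together 8 of 10, against 63.2% of all entries. In null sample 2, 7 lay below and 2 above, together 9 of 10, against 69.7% of entries. In null sample 3, 3 lay below (Prom2, Kit and Folr1) and 3 above (Ly6a, Cd55 and Cd9), together 6 of 10, against 72.5%. Prom2 was the member outside on the same side in all 3 null samples, and Epcam the member inside in all 3. Without null sample 3, the lower calls were Prom2, Ly6a and Cd200, 3 of 10 members, against 2.02% of all entries (limma).

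The differences were also taken relative to Epcam, by subtracting its level on each array. Unlike a sorting gate, the subtraction does not leave out RNA of cells without EpCAM, so it does not give levels within epithelial cells. This comparison does not depend on how arrays are centred, and it shows unequal change, not which gene changed. Relative to Epcam, Prom2 had values of -0.31, -0.61 and -0.65 in wild-type and of -3.06, -2.45 and -3.24 in null samples. These did not overlap, and the difference was -2.39 (95% interval -3.07 to -1.71; limma, adjusted p = 0.00297). It was the single member of the remaining 9 past the threshold, where 2.41% of all entries passed, and it was not past it without the filter on dim probes (limma, adjusted p = 0.0568).

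The next largest differences relative to Epcam were those of Prom1 and Ly6a. Prom1 differed by -1.12 (SE 0.41; limma, adjusted p = 0.252) and Ly6a by -0.87 (SE 0.45; limma, adjusted p = 0.481). Both were past the threshold in 5 of 14 alternatives, among them that without null sample 3, where Prom1 differed by -1.42 and Ly6a by -1.39. Without wild-type sample 1 that of Prom1 was -0.67, and without null sample 2 that of Ly6a was -0.59. Cd200 (-0.74) and Cd24a (-0.60) were lower relative to Epcam by values that did not pass, and Cd55, Cd9, Kit and Folr1 lay between -0.26 and 0.29.

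**Figure D3:**
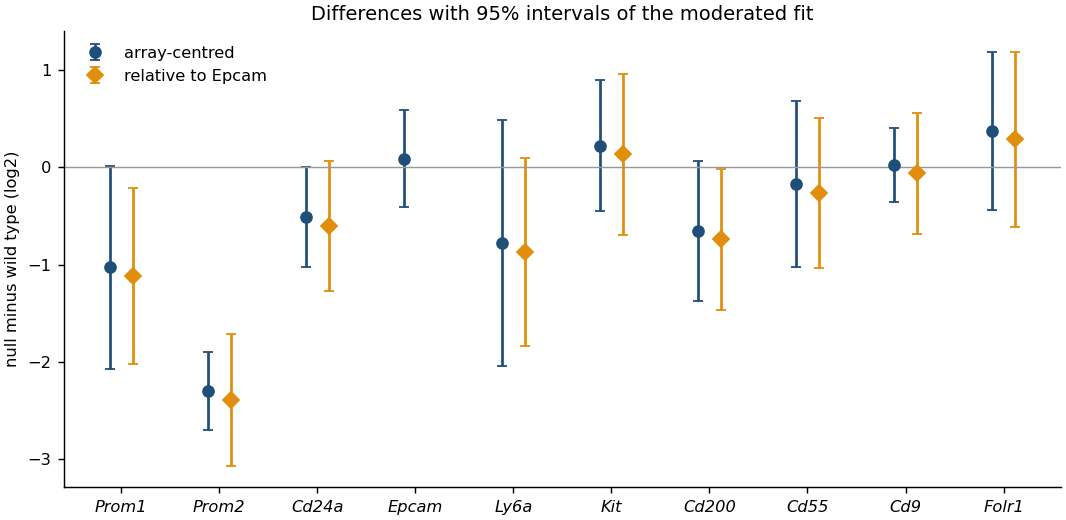
The log2 difference of each member, null minus wild type, with 95% intervals of the moderated fit (3 samples a group); circles use array-centred levels and diamonds levels relative to Epcam. The intervals of Prom2 lie wholly below 0 on both scales, at -2.70 to -1.90 and -3.07 to -1.71, and the array-centred intervals of the other members include 0. Relative to Epcam, those of Prom1 (-2.02 to -0.22) and Cd200 (-1.47 to -0.013) also lie below 0, though neither passed after adjustment.

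Markers of the cell types that carry these proteins also differed between samples, and their part in the members' results was not tested. Over all the lists, 1 marker, the progesterone receptor gene Pgr, passed the threshold by limma, and 0 of the lymphocyte markers did. Of 10 lymphocyte markers, all were measured and all had a negative difference, with a median of -2.44 and sample medians of -2.90, -3.19 and -1.34 in null samples 1, 2 and 3. The summed linear level of the list ran from 24.5 to 42.4 in wild-type and from 5.81 to 12.3 in null samples, in multiples of the array's 75th percentile. Here and below, such a sum is weighted towards the brightest probes of a list, and can be compared only between samples. The defining lymphocyte genes Cd3e and Cd79a differed by -2.12 each and did not pass the threshold (limma, adjusted p = 0.0621 and 0.0867). Cd3e was well above background on all arrays, at -0.57, -0.53 and 0.65 in null samples, and Cd79a on 2 of the 3 null arrays. Among null samples, the list was lowest in sample 2 and highest in sample 3, an order shared by Prom1, Cd24a, Epcam, Ly6a, Cd200, Cd55 and Cd9. This order was not particular to lymphocyte markers. The medians of the mast cell, myeloid, endothelial, fibroblast, hormone-sensing luminal, luminal progenitor and pan-luminal lists had it too. Prom2, Kit and Folr1 were instead lowest in null sample 3.

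Hormone-sensing luminal markers, the genes of the cells that Prom1 and Ly6a are used to sort, had a negative difference in 7 of 8, and 1, Pgr, passed the threshold (limma, adjusted p = 0.042). Their median difference was -0.83, with sample medians of -0.89, -1.17 and -0.24, and their summed level was 256.5 to 300.9 in wild-type and 208.9 to 337.2 in null samples. Esr1, the oestrogen receptor gene, had levels of 1.01, 1.31 and 1.22 in wild-type and 0.43, -0.31 and 0.67 in null samples. Pgr, the progesterone receptor gene, had 1.97, 1.56 and 1.36 against 0.12, -0.61 and -0.51. The groups did not overlap for either gene, and null sample 2 was the lowest for both, but Esr1 did not pass the threshold (limma, adjusted p = 0.124). Over the list, the groups did not overlap for 4 of 8 genes, against 31.3% of all entries.

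Among luminal progenitor markers, which Kit is used to sort with, 4 of 5 were measured, 3 of them with a negative difference. The median difference of the list was -0.87, with sample medians of -0.95, -1.19 and -0.43 in null samples 1, 2 and 3. Elf5, a transcription factor of that lineage, differed by 1.70 with all null samples above all wild-type samples. Aldh1a3, a retinaldehyde dehydrogenase gene, differed by -1.60 with all below. Neither gene passed the threshold (limma, adjusted p = 0.0565 and 0.0826), and the groups did not overlap for 31.3% of all entries. The summed level of the list was 737 to 1015.4 in wild-type and 695.5 to 989.1 in null samples. Mast cells also carry Kit, and 5 of 6 measured mast cell markers had a negative difference, with a median of -0.82 (-0.51 without null sample 2) and summed levels of 26.9 to 40.8 and 11.6 to 22.7. The levels of the mast cell proteases Cpa3 (0.29 to 1.30) and Tpsb2 (0.045 to 0.88) in null samples lay below those of all wild-type samples. Neither protease gene passed the threshold (limma, adjusted p = 0.25 and 0.15).

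Endothelial markers, relevant to Ly6a and Cd200, were negative in 8 of 8, with a median of -0.38, which spike-in scaling brought to -0.083 and leaving out null sample 2 to -0.19. Their sample medians were -0.25, -0.80 and 0.034 and their summed levels 94.5 to 149.4 in wild-type and 70.9 to 115.6 in null samples. Basal markers were positive in 7 of 8 (median 0.66, or 0.39 without wild-type sample 1; summed level 216 to 379.8 in wild-type and 437.5 to 555.7 in null samples), and pan-luminal markers had a median of -0.10, which was 0.19 with spike-in scaling. The other lists had medians of -0.49 for myeloid, -0.38 for fibroblast, -0.44 for pericyte and -0.20 for erythroid markers (0.094 for the last with spike-in scaling). Spike-in scaling brought the others to -0.20 for myeloid, -0.086 for fibroblast and -0.15 for pericyte markers, and the basal median to 0.96. With 1 sample left out, these medians ran from -0.60 to -0.29 for myeloid, from -0.63 to -0.14 for pericyte and from -0.38 to 0.074 for erythroid markers. Genes of dividing cells were positive in 5 of 5, with sample medians of 1.64, 3.18 and 1.60 and summed levels of 6.92 to 10.7 in wild-type and 24.8 to 79.1 in null samples.

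**Figure D4:**
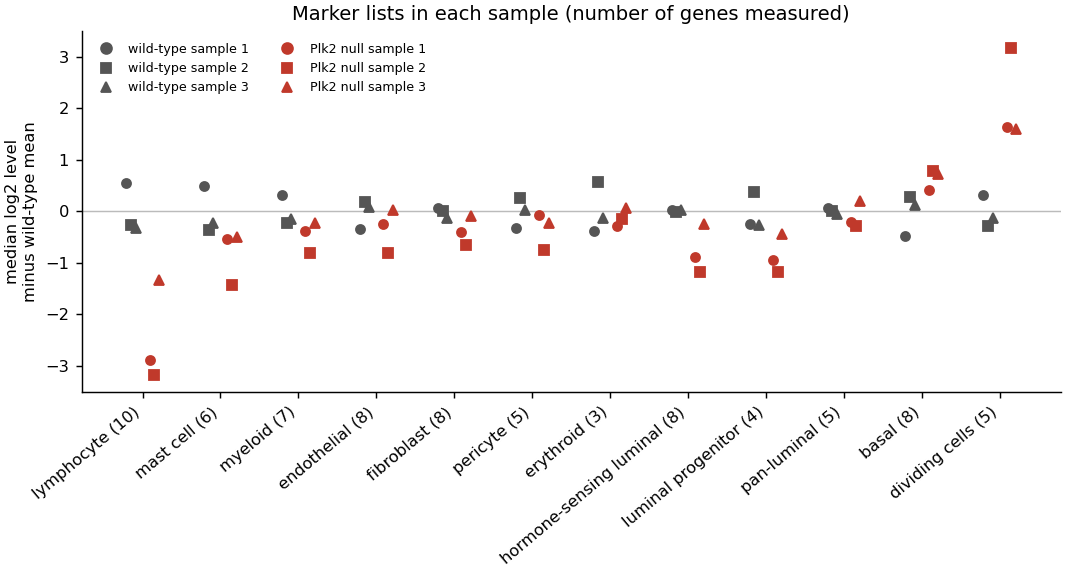
For each marker list, the median over its measured genes (number in brackets) of the log2 level minus the wild-type mean, in each sample; grey is wild type, red is Plk2 null and symbols give the sample number. Lymphocyte markers lie at -2.90, -3.19 and -1.34 in the null samples and genes of dividing cells at 1.64, 3.18 and 1.60. By limma, 0 genes of either list passed the threshold.

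Other surface genes named in work on mammary cells, with relatives of the members, were read from a list of 36, of which 34 were measured well enough to test. By limma, 0 passed the threshold over all entries, where 0.333% of all entries were lower and 0.219% higher. At an unadjusted p under 0.05 the count was 10 of 34, against 22.8% of all entries. The groups did not overlap for 10 of 34, a share near the 31.3% of all entries. Their differences had a median of -0.21, with 11 positive and 23 negative, where all entries had 12903 positive and 11704 negative. Integrin and adhesion genes were negative in 6 of 7 (median -0.61), luminal and progenitor genes in 4 of 10 (median 0.20), proposed stem cell genes in 3 of 5 (median -0.55) and relatives of the members in 10 of 12 (median -0.29).

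The groups overlapped for the integrin chains used most in sorting. Itga6, or CD49f, differed by 0.22 (95% interval -0.29 to 0.72) and Itgb1, or CD29, by -0.036 (95% interval -0.36 to 0.29). Itga5, the alpha chain of a fibronectin receptor, had the smallest p of the list, with a difference of -0.90 (95% interval -1.23 to -0.58; limma, adjusted p = 0.052). It passed the threshold in 6 of 17 alternatives, among them that without null sample 3. Izumo1r, a relative of Folr1 found on regulatory T cells and oocytes, differed by -1.37 (SE 0.25; limma, adjusted p = 0.0738), with the spot of wild-type sample 3 left out as an outlier. Cd44, the hyaluronan receptor gene, differed by -0.62 (SE 0.17; limma, adjusted p = 0.11) and Bst1, an enzyme of the cell surface also found on myeloid and stromal cells, by -1.67 (SE 0.46; limma, adjusted p = 0.112). With normexp the difference of Bst1 was -1.10, and Bst1 passed the threshold in 3 of 17 alternatives. Folr2, the folate receptor of macrophages, differed by -0.98 (limma, adjusted p = 0.213) and Folr1 by 0.38 (limma, adjusted p = 0.539). Neither passed the threshold, and the groups overlapped for both.

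**Figure D5:**
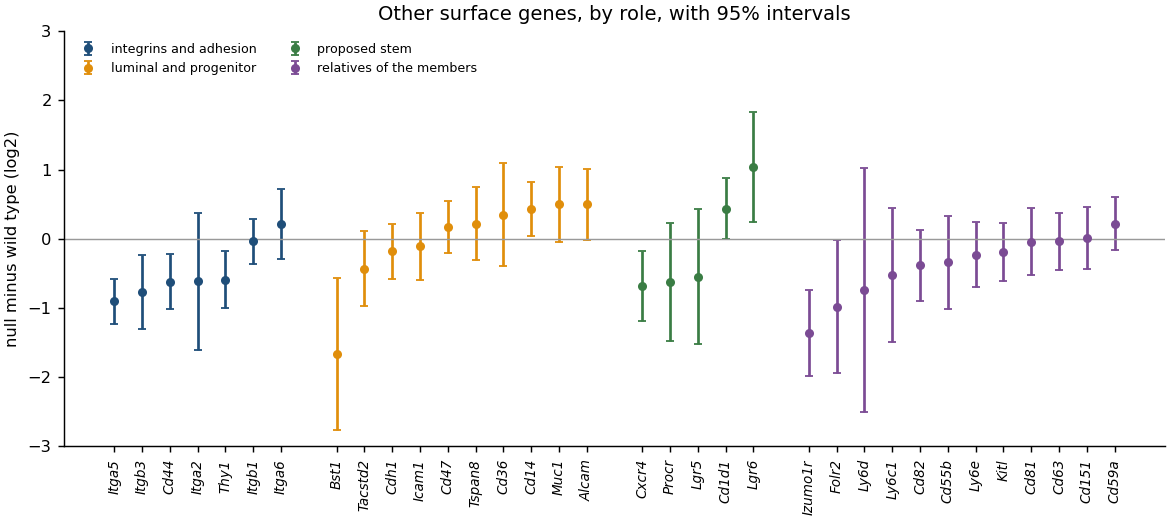
The log2 difference, null minus wild type, of 34 other surface genes, ordered within their roles, with 95% intervals (3 samples a group). Itga5, at -0.90, has the smallest p, and none of the 34 passed the threshold over all entries.

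The named genes whose levels followed those of Prom2 most closely over the 6 arrays were Amotl2 (r = 0.998), Trabd2b (r = 0.996) and Cpne1 (r = 0.995). Their differences were -0.25, -0.87 and -2.01, so a high correlation went with differences of unequal size. For Folr1, the member with the smallest p among those with a positive difference, they were Fto (r = 0.996), Pnn (r = 0.993) and Dhx16 (r = 0.991), with differences of 0.072, 0.12 and 0.16. These correlations, taken over the same arrays and chosen as the highest of 14385 entries, are a description.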

How the data were processed

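Trizol was used for extraction and a Cy3 kit for amplification and labelling, per the labels' protocols. The scanner software was Agilent Feature Extraction 11.0.1.1 and the array design 028005, on build mm9, per the file headers. The deposited processed signal is an intensity corrected for background by that software and not normalized between arrays. The authors' deposited table of the whole series also holds intensities that share 1 distribution over the arrays, an unadjusted p-value, a ratio (wild type over null) and a score, the same fold with a sign. The sources used here do not give how that table was made.

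The log2 processed signal was centred on each array's 75th percentile over gene spots. Control spots and 1119 outlier spots were left out, 0 gene spots were saturated, and spots of a probe were averaged. Probe accessions were matched to RefSeq (GRCm38.p6), which named 26582 of 55681 probes. A probe was kept where at least 3 of 6 arrays measured it well above background. Each gene was represented by its brightest kept probe, and unnamed probes stood alone, which gave 24607 entries. Null was compared with wild type by lmFit and eBayes of limma 3.58.1 (R 4.3.3), with Benjamini-Hochberg adjustment over all entries and a threshold of 0.05. Probes were also fitted singly, and entries after subtraction of Epcam. The number of arrays limits the precision, and since no label says that samples are separate animals, p-values measure the spread between these samples. The members and lists were chosen with earlier results of these data known. The text names all members, Plk2, the 4 other surface genes with the smallest p, the first 2 markers of the lists it describes, and the 3 named genes most like Prom2 and Folr1, the members with the smallest p in each direction; further surface genes were named, after their values were seen, as relatives of a member or for their use in sorting. The fit was tested on simulated data. Alternatives were another background correction (normexp, offset 50), other centring, filters, probe rules and moderation, array weights, the replicate block, the deposited table's values and each array left out.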

Additional observations from a re-analysis of the deposited data

How the results depend on the processing

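Prom2 kept its negative difference in all 17 alternatives and lost the threshold with the replicate block (-2.30) and without wild-type sample 2 or null sample 1; differences with 1 sample left out ran from -2.40 to -2.21. Same-numbered samples correlated at -0.12, 0.038 and -0.018 in their deviations, so the numbers were not taken to pair them, and the block left 8 entries, 0 members and 0 member probes past the threshold. Members past it numbered 0 to 3 with 1 sample left out, member probes 0 to 4, other surface genes 0 to 2 and members relative to Epcam 1 to 3. Member probes past it were 1 without the filter on dim probes and 1 with all arrays required. Relative to Epcam, members past it were 0 without the filter, 3 with normexp, 3 with trend and robust moderation, 5 with array weights and 3 with the deposited table's values. Other surface genes past it were 4 with normexp, 3 with array weights, and 1 each with all arrays required, trend and robust moderation and the deposited values. Entries past the threshold, 136 here, were 1204 with normexp, 342 with median centring, 377 with spike-in scaling, 31 without the filter, 382 with all arrays required, 831 with trend and robust moderation, 1497 with array weights, 756 with the deposited values and 7 to 738 with 1 sample left out. The cause was not tested.

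Signs turned, never past the threshold, for Epcam (-0.020 to 0.25 with 1 sample left out), Cd55 (0.12 with spike-in scaling; -0.56 to 0.14 with 1 sample left out) and Cd9 (-0.11 with quantile normalization, -0.032 with array weights, -0.090 with the deposited values; -0.071 to 0.12 with 1 sample left out). Relative to Epcam they turned for Kit (-0.12 to 0.54), Cd9 (-0.17 to 0.054) and Folr1 (-0.17 to 0.75) with 1 sample left out. Spike-in scaling moved the median of all entries from 0.026 to 0.32, and dropping the filter moved it to -0.11. With spike-in scaling Prom2 differed by -2.01, Prom1 by -0.73, Ly6a by -0.49, Cd200 by -0.36 and Cd24a by -0.22. Epcam, Cd9, Kit and Folr1 then differed by 0.38, 0.32, 0.51 and 0.67.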
